A study of Arabidopsis thaliana with 12 samples.

Results

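Transfer RNA (tRNA) genes were read from the deposited counts of an RNA-seq experiment on Arabidopsis thaliana seedlings as the row named tRNA, which pools every exon whose gene carries that biotype. The row held 697 intervals of 217183 intervals in the table, and 1 count per library over all of them. The libraries came from Col-0 wild type (WT) and from gpl-1, a loss-of-function line in Col-0 made with CRISPR-Cas9 in the gene GPL, and gpl-1 is 1 line. Both genotypes were grown on MS medium with sucrose and sampled at 2 weeks of age, as seedlings according to the methods. They were either untreated or treated for 2 h with abscisic acid (ABA). This gave 4 groups of 3 libraries each, called WT, WT ABA, gpl-1 and gpl-1 ABA. According to the methods, whole seedlings of a genotype and treatment were pooled before extraction. The labels name buds as the material, so labels and methods differ on the material as well as on the number per sample. The ABA concentration is not given in the sources used here. Because counts were deposited per biotype, GPL itself could not be used to check the genotype labels, and no tRNA gene had a count of its own. The column of each gpl-1 file carries another line name, and the files were assigned by their sample records.

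A tRNA carries 1 amino acid to the ribosome and reads the codon with its anticodon. In the plant nucleus tRNA genes are transcribed by RNA polymerase III from promoter elements inside the gene, the A box and the B box, and transcription ends at a run of T residues. The chloroplast and the mitochondrion each encode tRNAs of their own. Mature tRNAs are short, folded, modified and not polyadenylated, and the libraries here were made from poly(A) RNA, a protocol that does not select for them.

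The sequences below show what the annotation holds: the genes that fill the largest tandem clusters, the most frequent gene, its chloroplast counterpart, both ways in which interrupted genes were counted, and a nuclear gene that matched mitochondrial sequence. They were read from the RefSeq genome of TAIR10.1 and are printed 5′ to 3′ on the gene strand. In the first pair the capitals mark the interval that was counted. The tyrosine gene AT1G56750 (chr1:21269552-21269636, plus strand) stood for 19 genes of the largest cluster that share its whole sequence, intron included, and the methionine gene AT3G07055 (chr3:2232465-2232550, minus strand) was the first by position of which the 3′ exon was counted.
AT1G56750, tRNA-Tyr: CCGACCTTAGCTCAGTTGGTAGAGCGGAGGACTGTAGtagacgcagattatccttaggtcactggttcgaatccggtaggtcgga
AT3G07055, tRNA-Met: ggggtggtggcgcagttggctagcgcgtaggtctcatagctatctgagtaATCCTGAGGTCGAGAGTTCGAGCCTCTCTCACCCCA
In the next sequences the capitals mark the letters GTTCGANNC, the inner part of the B box. The serine gene AT1G56760 (chr1:21270296-21270377, plus strand) had the sequence of 13 genes of the largest cluster. The proline gene AT1G28740 (chr1:10090368-10090439, plus strand) had the most frequent nuclear sequence, shared by 34 genes, which was also the most frequent one in the second and the third largest cluster. The aspartate gene AT1G03515 (chr1:877648-877719, plus strand) had the sequence of 21 genes, and AT2G07743 (chr2:3255832-3255905, minus strand) is an aspartate gene whose interval also occurs in the mitochondrial reference sequence.
AT1G56760, tRNA-Ser: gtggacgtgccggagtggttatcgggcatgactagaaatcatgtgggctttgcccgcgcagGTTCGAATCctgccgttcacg
AT1G28740, tRNA-Pro: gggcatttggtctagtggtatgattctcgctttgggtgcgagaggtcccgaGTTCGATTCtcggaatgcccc
AT1G03515, tRNA-Asp: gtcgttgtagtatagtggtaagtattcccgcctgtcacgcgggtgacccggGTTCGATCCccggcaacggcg
AT2G07743, tRNA-Asp: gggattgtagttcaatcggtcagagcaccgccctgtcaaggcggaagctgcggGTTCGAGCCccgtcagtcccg
The chloroplast proline gene (ArthCt106, positions 66490 to 66563 of the chloroplast genome, minus strand) held no such match and has no capitals.
ArthCt106, tRNA-Pro: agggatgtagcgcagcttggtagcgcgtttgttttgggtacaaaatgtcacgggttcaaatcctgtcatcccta
In a global alignment, 44 of 75 columns were identical between the nuclear and the chloroplast proline gene. Between the 2 aspartate genes, the common nuclear one and the one that matched mitochondrial sequence, 49 of 75 columns were identical. No pair of unrelated tRNA genes was aligned, so these numbers have no baseline.

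Nuclear genes made up most of the annotated tRNA length. Of the 697 intervals, 631 lay on the 5 nuclear chromosomes, 45 in the chloroplast and 21 in the mitochondrion, and they covered 48312 bp, of which 90.8% was nuclear, 5.77% chloroplast and 3.43% mitochondrial. Joined by the RefSeq annotation they formed 689 genes, 631 nuclear, 37 chloroplast and 21 mitochondrial. Chromosome 1 carried 240 nuclear intervals, chromosome 5 carried 123, chromosome 2 carried 96, chromosome 3 carried 93 and chromosome 4 carried 79. Per Mb this was 7.89 on chromosome 1 and between 3.96 and 4.87 on the other chromosomes. Without the largest cluster, chromosome 1 had 159 genes, or 5.23 per Mb. The chloroplast genome, at 239.5 genes per Mb, was denser than any nuclear chromosome.

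Most intervals had the length of a whole tRNA. Between 70 and 79 bp there were 473 intervals and between 80 and 89 bp there were 118, the longer class being that of tRNAs with a long variable arm and of some organelle tRNAs. No interval was longer than 200 bp, and the longest was a mitochondrial interval of 111 bp at positions 104885 to 104995 of the files' mitochondrial sequence. There were 99 intervals under 60 bp, and the shortest, at 23 bp, was the first exon of a chloroplast glycine gene (ArthCt092, positions 8646 to 8668). Of the short intervals 81 were exons of interrupted nuclear genes and 16 of interrupted chloroplast genes, and the other 2 were serine intervals of 38 bp on chromosome 2 (AT2G07754 and AT2G07759).

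The nuclear genes with an intron were counted by 1 exon each. In RefSeq, 81 of the matched nuclear genes are split in 2 exons, 70 of 75 for tyrosine and 11 of 23 for methionine, the amino acids whose nuclear tRNA genes are interrupted in plants. The tyrosine genes without an intron were AT2G07745, AT2G07753, AT2G07761, AT2G07765 and AT2G07792. They lay in the chromosome 2 block of mitochondrial sequence described below. The introns of the 81 split genes were 6 to 16 bp long with a median of 11 bp. The count table held only the 5′ exon of 75 of these genes and only the 3′ exon of the other 6, and in 69 of them the interval was 1 base shorter than the RefSeq exon. The intervals of these genes were 36 to 38 bp, and together they held 3000 of 6005 exon bases, so 3005 bases of tyrosine and methionine tRNA could not collect a fragment of their own. In the tyrosine gene printed above, the capitals cover the 5′ part and leave out the B box. The 8 interrupted chloroplast genes were treated differently, since both exons were in the table. They carry alanine, isoleucine (each by a pair of genes), glycine, leucine, lysine and valine, and their introns ran from 512 bp in the leucine gene to 2559 bp in the lysine gene.

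All 20 amino acids were represented in the nucleus and in the chloroplast, and the nuclear numbers were very uneven. Of the 623 nuclear genes that RefSeq also lists as tRNA genes, 75 carry tyrosine, 66 proline and 64 serine, together 205 genes or 32.9%. Glycine followed with 41 genes, leucine with 40, arginine with 36, alanine with 33, lysine and valine with 30 each, aspartate with 26, glutamate and threonine with 24 each, and isoleucine and methionine with 23 each. Glutamine had 17 genes, asparagine and phenylalanine 16 each, cysteine 15, tryptophan 14 and histidine 10. The 3 largest families were concentrated on chromosome 1, which held 74.7% of the tyrosine genes, 57.6% of the proline genes and 56.2% of the serine genes but 13.3% to 35.7% of the genes for any other amino acid. The chloroplast families had 1 to 4 genes, with 4 each for leucine and isoleucine. The 623 genes had 47 different anticodons, and every tyrosine gene had GTA, while proline was led by TGG with 45 genes and serine by AGA with 37. Amino acids were not assigned to the 21 mitochondrial intervals, because the mitochondrial reference sequence used here is another one than that of the files.

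**Figure D1:**
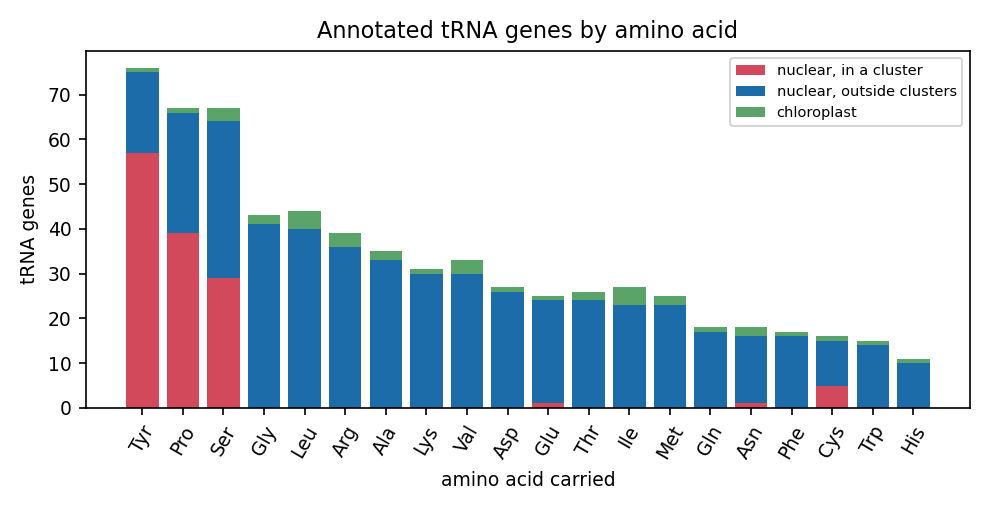
Number of annotated tRNA genes (y axis) by the amino acid they carry (x axis), with nuclear genes inside clusters in red, nuclear genes outside clusters in blue and chloroplast genes in green. The clustered genes are almost all tyrosine (57 of 75), proline (39 of 66) and serine (29 of 64) genes. Nuclear counts include the genes of the chromosome 2 block that matches mitochondrial sequence.

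Tandem clusters were counted as 3 or more genes with at most 1000 bp between neighbours. There were 15 clusters, of which 10 with 132 genes were nuclear, so 20.9% of the nuclear genes lay in a cluster. These include the clusters at chr2:3494382-3497440 (6 genes) and chr2:3303244-3303822 (3 genes), both in the chromosome 2 block of mitochondrial sequence described below. In 13 of the 15 clusters all genes were on the same strand, and 7 of the 10 nuclear clusters held a single amino acid. Most nuclear tRNA genes were far apart, with a median gap of 77215 bp over all 626 neighbouring pairs, clusters included.

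The largest cluster was a repeat of serine and tyrosine genes. It spanned chr1:21268787-21308471 (39.7 kb) from AT1G56730 to AT1G57530, with 81 genes on the plus strand, 54 for tyrosine and 27 for serine, which are 72% of the nuclear tyrosine genes and 42.2% of the nuclear serine genes. The order serine, tyrosine, tyrosine was repeated 27 times with no other gene between. The step from 1 repeat to the next was 1531 bp in the median and ranged from 1349 to 1537 bp, and within a repeat the first tyrosine gene began 333 bp (329 to 336) after the serine gene. The spacing was therefore nearly constant over the whole array. Spliced, the 54 tyrosine genes had 10 different sequences, 1 of them in 32 genes, and the 27 serine genes had 8, 1 of them in 13 genes.

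The other large nuclear clusters held proline genes. The second cluster had 11 genes at chr1:10096951-10102064 (5.11 kb), the third had 9 genes at chr2:14350386-14356592 (6.21 kb), and the fourth had 6 genes at chr1:10106090-10108781 (2.69 kb), all for proline and all on the plus strand. With the 2 smaller clusters next to them and no gene for another amino acid, the chromosome 1 clusters made up a stretch of 26 proline genes over 19.3 kb (chr1:10089437-10108781). The fifth, with 6 genes at chr2:3494382-3497440 (3.06 kb), had no repeat of this kind: it carried 2 tyrosine genes and 1 each for serine, proline, cysteine and asparagine, each with a sequence of its own. A cluster of 6 mitochondrial intervals (positions 103827 to 106879 of the files' mitochondrial sequence) had nearly the same span, 3.05 kb, and the same shortest and nearly the same median gap, 161 and 353 bp against 161 and 355 bp.

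**Figure D2:**
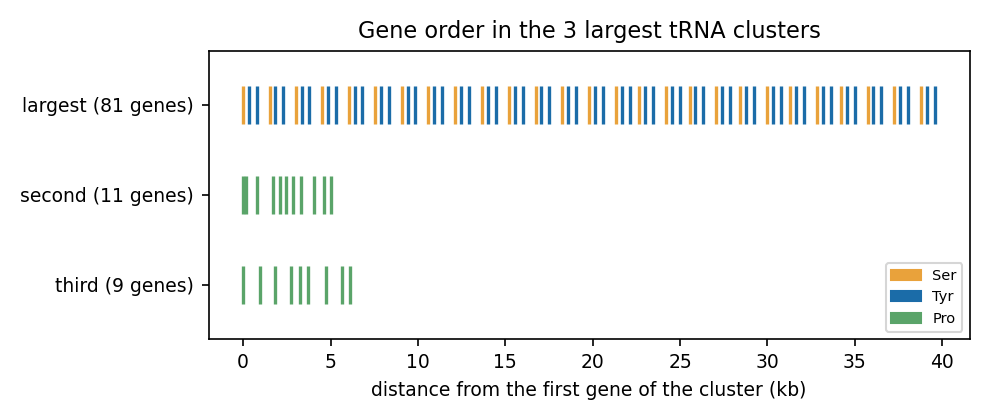
Position of each gene (vertical mark) in the 3 largest clusters, as distance in kb from the first gene of the cluster (x axis), coloured by amino acid. The largest cluster shows 27 evenly spaced repeats of 1 serine and 2 tyrosine genes, and the other 2 clusters show proline genes only.

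That mixed cluster lay in a block of chromosome 2 whose tRNA intervals were all mitochondrial in sequence. Between chr2:3239657 and chr2:3503608 (264 kb) there were 23 tRNA intervals, and all 23 occurred letter for letter in the mitochondrial reference sequence. No other nuclear interval did. They were 23 of the 96 intervals of chromosome 2 and included genes for serine, tyrosine, methionine, glutamine, tryptophan, glutamate, isoleucine, glycine, proline, cysteine, asparagine and aspartate. A large insertion of mitochondrial DNA near the centromere of this chromosome is well known in Arabidopsis. A fragment from such a sequence cannot be assigned to the nucleus or the mitochondrion within the interval. Only 1 further nuclear interval matched an organelle, AT3G20365 at chr3:7104309-7104392, which was identical to chloroplast sequence and is listed as a pseudogene in RefSeq.

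Repeated sequence was the rule in the whole nuclear set. The 623 matched nuclear genes had 209 different spliced sequences, and 509 genes (81.7%) shared theirs with at least 1 other gene. There were 13 sequences with 10 or more genes, and they covered 218 genes. Phenylalanine was the most uniform family, with 15 of 16 genes identical, and cysteine the most varied relative to its size, with 12 sequences in 15 genes. As deposited, 531 of the 631 nuclear intervals (84.2%) were found more than once in the genome, up to 45 times. With 75 bp added on both sides, 93 nuclear intervals were still found more than once, so most copies differ just outside the gene. In the chloroplast 19 of 45 intervals were found more than once, and 18 of them still with both flanks, none more than 2 times. Pairs of identical chloroplast genes are known from the inverted repeat. The recorded featureCounts command switched on no counting of multi-mapping fragments. Whether the aligned reads carried the mark by which such fragments are left out is not given in the sources used here, and the part of fragments that fit several copies in the tRNA count was not tested.

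Most of the annotation agreed between the files and RefSeq. On the nuclear chromosomes 623 of the 631 intervals overlapped a RefSeq tRNA gene on the same strand, and these were 623 of 625 RefSeq genes. The other 8 are pseudogenes in RefSeq. In the chloroplast 44 of 45 intervals matched, and 1, a serine gene, lay on the opposite strand.

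With no mismatch allowed, the B box letters searched were found in most nuclear genes, and the A box letters searched in few. The B box was searched, on the gene strand of the spliced gene, as GTTCGANNC with a G directly before it and a C directly after it, and 366 of 623 nuclear genes (58.7%) held it, beside 0.0284% of 1632139 consecutive nuclear windows of 73 bp read on the plus strand. Its start lay at position 53 in the median. The families differed: all 24 glutamate, 23 isoleucine and 30 lysine genes held it, and 68 of 75 tyrosine genes, but 1 of 66 proline, 0 of 24 threonine, 0 of 16 phenylalanine, 0 of 14 tryptophan and 0 of 10 histidine genes. The proline sequence printed above differs from the longer motif at letters outside its capitals. GTTCGANNC alone, which lies inside the longer motif and was chosen after the sequences had been seen, was held by 490 nuclear genes (78.7%), among them 50 proline genes and all 16 phenylalanine genes, beside 0.213% of the windows. In the chloroplast 18 of 37 genes held the longer motif, beside 0.331% of chloroplast windows of the same length, and with 1 mismatch allowed 32 of 37 held it (86.5%), above the 73.5% of nuclear genes. The A box was searched on the same strand as TGGC, any 2 bases, AGT, any 1 base and GG, and 25 nuclear genes (4.01%) and 0 chloroplast genes held it, beside 0.0115% of the nuclear windows. With 1 mismatch allowed 230 nuclear genes (36.9%) and 7 chloroplast genes (18.9%) held the A box, beside 0.321% of the nuclear windows. No shorter form of the A box was searched, so the contrast between the boxes depends on the letters chosen. The 81 counted exons of interrupted nuclear genes held the longer B box motif in 4 cases, and 75 of them are the 5′ part of the gene, where the B box does not lie. The A box was held by 9 of these exons, and by 73 (90.1%) with 1 mismatch allowed.

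Flanking letters separated nuclear from chloroplast genes. A run of TTTT within 25 bp downstream on the gene strand was present at 577 of 623 nuclear genes (92.6%), at position 6 in the median, beside 20.4% of nuclear windows of that length. In the chloroplast it was present at 7 of 37 genes (18.9%), beside 22.9% of chloroplast windows. The letters CAA within 10 bp upstream, a common start context of plant tRNA genes, were present at 454 nuclear genes (72.9%) beside 17.9% of windows, and at 5 chloroplast genes (13.5%) beside 15.2%. In base composition nuclear and chloroplast tRNA were closer. The nuclear tRNA intervals had 56.5% G and C against 42.4% in protein-coding exons, 49.6% in nuclear rRNA and 36.0% in the nuclear genome, and the chloroplast tRNA intervals had 52.5% against 36.3% in the chloroplast genome. No test was made of these shares, and a match is a description of letters only.

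The intervals lay close to other genes but seldom inside their exons. Of the 697 intervals, 32 (4.59%) overlapped an exon of another biotype by at least 1 base, 29 of them protein-coding and 3 transposable element exons. The overlapping exon was on the same strand in 13 cases and on the opposite strand in 19, and the overlaps covered 1552 bp or 3.21% of the tRNA length. Of the nuclear intervals 569 (90.2%) lay outside protein-coding genes, 36 in introns and 26 in exons by RefSeq. The median distance from a nuclear interval to the nearest protein-coding exon was 199 bp, and 269 nuclear intervals (42.6%) lay within 150 bp of 1, the read length named in the labels. The largest cluster was the exception: 68 of the 74 nuclear intervals more than 5000 bp from a protein-coding exon belonged to it. Fragments were counted without regard to strand, so reads of a neighbouring transcript that runs into a tRNA gene could not be told from tRNA reads. The counting default leaves out fragments that overlap exons of different biotypes. A tRNA fragment that also touched a neighbouring exon could therefore be lost, and how many were lost was not tested.

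The tRNA count was small in every library. Over all 12 libraries it lay between 5648 and 15169 fragments of 24735276 to 34329165 counted, or between 181 and 479 per 1000000 fragments of the library (CPM), a 2.64-fold range. This was 0.0181% to 0.0479% of the fragments, whereas protein-coding genes took 99.1% to 99.4%. Counting alone leaves little error at such totals, with a 95% Wilson interval for the lowest library of 177 to 186 CPM and for the highest of 471 to 488 CPM. These intervals cover counting error only.

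In WT the tRNA share was 182, 181 and 479 CPM in replicates 1, 2 and 3. In WT ABA it was 403, 400 and 306 CPM. In gpl-1 it was 379, 383 and 378 CPM. The 3 untreated gpl-1 libraries were nearly equal, whereas WT contained both the lowest libraries and the highest library of the experiment. In gpl-1 ABA it was 466, 463 and 304 CPM, so that replicate 3 was lower than replicates 1 and 2 in both ABA groups and higher in WT. The ranges of all 4 groups overlapped, since the range of WT contained every other library.

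Replicates 1 and 2 agreed within sampling noise for tRNA in all 4 groups, with a chi-square of 0.014 to 0.689 on 1 degree of freedom (p between 0.406 and 0.906). Against replicate 3 the chi-square was 342 to 3918 in WT, WT ABA and gpl-1 ABA. In gpl-1 it was 0.00840 and 0.748, but over the 9 biotypes replicate 3 stood apart there too, with a chi-square of at least 1921 per degree of freedom. Replicates 1 and 2 were therefore summed and counted as 1 sample, which gave n = 2 per group, although over 9 biotypes the pair of gpl-1 ABA had a ratio of 2.31. Nothing in the labels names separate plants or pools behind the libraries, and p-values measure the spread between these samples, which may be technical. On this basis the tRNA share was 330 ± 210 CPM in WT and 354 ± 67.2 CPM after ABA (SD, n = 2 each). The gpl-1 samples had 379 ± 1.71 CPM untreated and 384 ± 114 CPM after ABA (SD, n = 2 each). The means of the 4 groups thus differed by less than the SD within 3 of them.

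**Figure D3:**
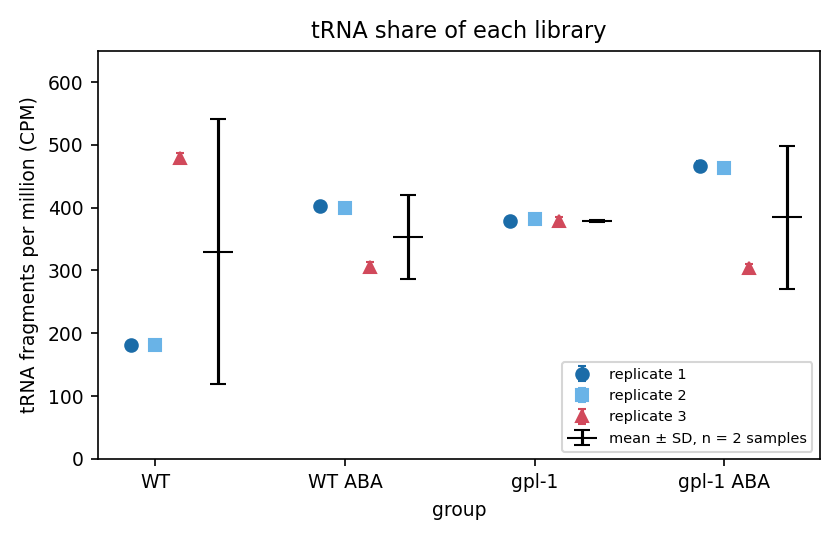
tRNA fragments in CPM (y axis) in each library of the 4 groups (x axis), with 95% Wilson intervals, replicates by symbol, and the group mean ± SD over n = 2 samples in black (replicates 1 and 2 summed, replicate 3). Replicates 1 and 2 coincide in each group, and replicate 3 is far above them in WT, below them in both ABA groups and level with them in gpl-1.

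The first question was whether ABA changed the tRNA share. In WT the fitted log2 change with ABA was 0.10 (95% interval -1.05 to 1.25, edgeR adjusted p = 0.948), and in gpl-1 the log2 change was 0.02 (-1.13 to 1.17, edgeR adjusted p = 0.979). Neither passed, and with intervals reaching past 1 on the log2 scale in either direction neither shows that the share did not change. In both comparisons edgeR called 0 of 9 biotypes at an adjusted p under 0.05 (0%), also 0 at an unadjusted p under 0.05, and DESeq2 called 0. Within replicates 1 and 2 the share rose with ABA by 1.15 on the log2 scale in WT (2.21-fold), and within replicate 3 it fell by 0.65. In gpl-1 these ratios were 0.29 and -0.31. The direction thus differed between the samples of a group in both genotypes. Without WT replicate 3 the fit gave 0.96 for ABA in WT, with an edgeR adjusted p of 0.311.

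The second question was whether gpl-1 differed from WT. Without ABA the log2 difference was 0.20 (95% interval -0.95 to 1.35, edgeR adjusted p = 0.893), and with ABA it was 0.12 (-1.03 to 1.27, edgeR adjusted p = 0.823). In both comparisons edgeR called 0 of 9 biotypes (0%), 0 also at an unadjusted p under 0.05, and DESeq2 called 0. Within replicates 1 and 2 gpl-1 was higher than WT by 1.07 on the log2 scale without ABA and by 0.21 with ABA, and within replicate 3 the ratios were -0.34 and -0.01. Without WT replicate 3 the difference without ABA was 1.06 (edgeR adjusted p = 0.262). A comparison that rests on untreated WT therefore took its size from which of its libraries entered.

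The third question was whether the ABA response differed between genotypes. The difference of the log2 changes, gpl-1 minus WT, was -0.08 (95% interval -1.70 to 1.54, edgeR adjusted p = 0.909), and edgeR called 0 of 9 biotypes (0%), 0 also at an unadjusted p under 0.05, and DESeq2 called 0. Without WT replicate 3 it was -0.94 (edgeR adjusted p = 0.498). Over all 4 groups together an exact permutation test of log2 CPM on 8 samples gave p = 1, where the groupings allow a p as low as 0.00952. With the 12 libraries counted separately the exact permutation p was 0.283. Pairs of groups cannot reach 0.05 in this way: the smallest two-sided exact permutation p is 0.333 with n = 2 and 0.1 with 3 libraries.

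The opposite direction in the 2 sets of samples was common to all 4 comparisons. They use the same groups, so they do not count as 4 separate observations. Of the other 8 biotypes, pseudogenes also differed in direction in all 4, whereas rRNA and snRNA had the same direction in all 4 and the other 5 biotypes differed in 1 or 2. The rRNA share was 3717, 3711 and 1573 CPM in WT, so the library with the highest tRNA share was not the one with the most rRNA. In the other groups rRNA was also lower in replicate 3, at 1115 against 1537 and 1535 CPM in WT ABA, 1493 against 2718 and 2731 in gpl-1, and 1303 against 2304 and 2326 in gpl-1 ABA. The part of RNA quality or library preparation in these shares was not tested.

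**Figure D4:**
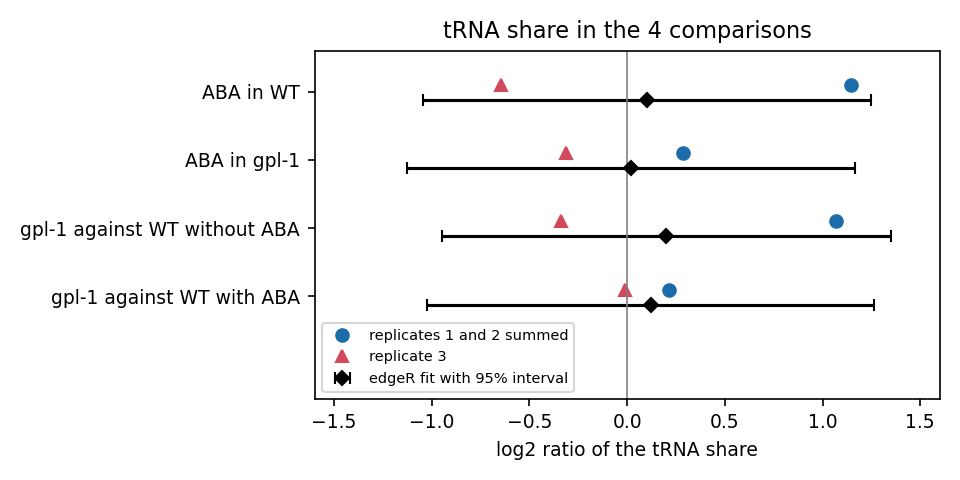
log2 ratio of the tRNA share (x axis) in the 4 comparisons (y axis) within replicates 1 and 2 (circles), within replicate 3 (triangles) and in the edgeR fit with its 95% interval (diamonds and bars). Circles lie above 0 and triangles below 0 in every comparison, and all 4 intervals include 0.

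Per kb of annotated length tRNA stood in the middle of the biotypes. Its density was 3.75 to 9.92 CPM per kb with a median of 7.88, with a rank of 3 to 5 among the 9 biotypes in each library. The rRNA density was always the highest, at 63.3 to 211 CPM per kb, and protein-coding exons were always second at 24.1 to 24.2. In the median library tRNA thus collected 0.327 times the fragments of protein-coding exons per kb. It was denser than miRNA, pseudogene, transposable element and snRNA exons in all 12 libraries, denser than ncRNA in 10 and denser than snoRNA in 6. The 2 libraries in which ncRNA was denser than tRNA were WT replicates 1 and 2. Since a tRNA interval averaged 69.3 bp against 198 bp for a protein-coding exon, the order depends on the unit: per interval, tRNA was above snRNA in all 12 libraries and above no other biotype in all of them. A paired fragment is longer than a tRNA interval, so a count per kb of interval does not measure depth over the gene in the way it does for long exons.

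**Figure D5:**
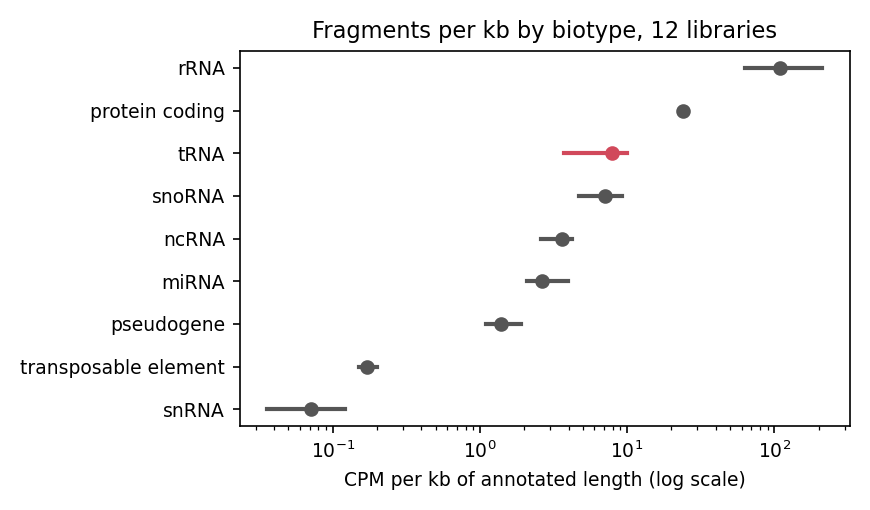
CPM per kb of annotated length (x axis, log scale) for the 9 biotypes (y axis), with the median (point) and the range (line) over 12 libraries and tRNA in red. tRNA lies at a median of 7.88, between snoRNA at 7.11 and protein-coding exons at 24.1.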

How the data were processed

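According to the paper and the labels, the authors trimmed the paired-end reads with Trim Galore, aligned them with Bowtie2 (TAIR10) and counted fragments with featureCounts 2.0.1. By the file headers the deposited counts are sums over exons of a biotype, ignore strand, keep duplicates, require that both mates map, and leave out chimeric pairs. They are not normalized. Library totals, used as depth, were 24735276 to 34329165 fragments.

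Counts were divided by the total. Shares were tested with edgeR 4.0.16 (quasi-likelihood, totals as offset, Benjamini-Hochberg over 9 biotypes, threshold 0.05) in R 4.3.3, with replicates 1 and 2 summed, and by exact permutation. DESeq2 1.42.0, TMM, a block, other totals, biotypes under 100 counts left out, libraries as deposited and each library left out were alternatives. Tests were checked on simulated data, which for edgeR had a fixed spread smaller than that between the WT samples. The check therefore does not give the power at the spread seen here.

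Intervals were joined into genes, named and read in RefSeq TAIR10.1 (Python 3.11.15). Of the protein-coding exons of a nuclear chromosome, 83.69% to 84.75% had identical coordinates there. Mitochondrial coordinates were not used there because that sequence differs. The text names every amino acid type, the 5 clusters with most genes, organelle classes, the extreme intervals, and the frequent sequences, the aspartate pair and the exon example being added later. The members and lists were chosen with earlier results of these data known.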

Additional observations from a re-analysis of the deposited data

How the results depend on the processing

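Over 95 alternative values of the 5 tRNA comparisons, 0 passed the threshold and 90 kept the direction of the fit. Many of these values could hardly move, so the counts do not measure robustness. A library outside the compared groups had little effect: ABA in WT stayed at 0.0996 without gpl-1 replicate 1. Replicates 1 and 2 are parts of a summed sample, and without WT ABA replicate 1 or 2 it was 0.097 or 0.102. The exact permutation p was unadjusted and for pairs of groups could not fall below 0.333. Of the 5 that turned, DESeq2 gave -0.032 for the ABA response of gpl-1 and -0.069 for the genotypes under ABA, the mean of log2 CPM gave -0.014 for the former, and leaving out 1 library gave the other 2, -0.062 between genotypes under ABA and 0.19 for the difference of the ABA responses. With each library left out, ABA in WT ranged from 0.10 to 0.96, ABA in gpl-1 from 0.01 to 0.29, gpl-1 against WT from 0.20 to 1.06 without ABA and from -0.062 to 0.39 with ABA, and the difference of the ABA responses from -0.94 to 0.19. The libraries behind the ends were WT replicate 3 (0.96, 1.06 and -0.94), WT ABA replicate 3 (0.28 for ABA in WT, -0.062 between genotypes under ABA and -0.26 for the difference) and gpl-1 ABA replicate 3 (0.29, 0.39 and 0.19). A group then left with 1 sample is assumed to vary like the others. With the 3 libraries counted separately the values were 0.40, 0.11, 0.44, 0.15 and -0.28.

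With the replicate set as a block the 5 values were 0.12, 0.03, 0.22, 0.12 and -0.10, with tRNA called in none, and 1 biotype other than tRNA was called for ABA in WT against 0 without the block. Over the biotypes, the deviations of same-numbered libraries correlated by 0.71 to 0.72 between WT and gpl-1, by 0.58 to 0.65 between gpl-1 and gpl-1 ABA, by 0.33 to 0.57 between WT ABA and gpl-1 ABA, and by -0.09 to 0.07 between WT and WT ABA. Deviations were taken from the mean of the libraries of a group, and replicates 1 and 2 nearly coincide. The correlations of a pair of groups are therefore not separate observations. The labels name no shared source for a number, and with replicates 1 and 2 counted as 1 sample only 2 pairs remain per comparison. The block therefore stands as an alternative, and it changed the call of tRNA in no comparison.

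Clusters numbered 34 with gaps up to 500 bp, since the largest cluster then broke up and no cluster had more than 6 genes, and 32 with 2 genes as the minimum. They numbered 15 and 14 with gaps up to 2000 and 5000 bp and 14 by strand. Requiring the whole interval inside another exon left 15 overlaps, and 10 bases left 29. Per interval in place of per kb, tRNA was above 1 biotype in all 12 libraries instead of 4. With 1 mismatch 458 nuclear genes (73.5%) and 32 chloroplast genes (86.5%) held the B box, so the order of the 2 genomes turned from 58.7% and 48.6%. The precision with which any tRNA change can be estimated is limited by 2 samples per group, not by depth. A single pooled count cannot say which tRNA gene gave the fragments.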
